A study of Mus musculus with 32 samples.

Results

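The response of the hippocampus to prenatal ethanol was compared between wild-type (WT) and ACSS2 knockout (KO) mice as an interaction, the ethanol minus saline difference in KO less the same difference in WT on the log2 scale. A negative interaction means that a gene stood lower after ethanol, relative to saline, in KO than in WT, and a positive one the reverse. All 16 dorsal hippocampus libraries of the 32 in the series entered the comparison, as 4 groups of 4: saline WT, ethanol WT, saline KO and ethanol KO. Each group held 2 females (F1, F3) and 2 males (M1, M3), all on the C57BL/6J strain. The dams spent 5 nights with a stud and from the end of night 1 received 1 intraperitoneal injection a day until birth, of ethanol at 3 g per kg (20% by volume) for chronic prenatal alcohol exposure, cPAE, or of saline for the control, cPSE. Weaning was at postnatal day 21 and tissue was taken at day 40 to 50, weeks after the exposure ended. How the knockout was made, the genotype of the dams, the litter of each mouse and the time of day at death are not given in the sources used here, so the p-values measure the spread between these mice, some of which may share a litter. Cages held mice of 1 genotype, sex and exposure, so cage and group cannot be told apart.

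ACSS2 is an enzyme that joins acetate to coenzyme A. Acetate is a main product of ethanol breakdown, and in neurons part of the acetyl-CoA made by ACSS2 is used in the nucleus for histone acetylation. Several of the genes described here are targets of the glucocorticoid receptor, a nuclear receptor that is abundant in hippocampal neurons, binds DNA when the stress hormone corticosterone is present, and raises transcripts such as Tsc22d3, Sgk1, Per1 and Fkbp5.

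Libraries held 54092519 to 96664509 counts, the sex of 16 of 16 matched its label, and all carry 1 batch label. Acss2 measured 55.7 ± 4.19 CPM (counts scaled to library size; SD, n = 8) in WT and 12.0 ± 1.00 CPM in KO, with no overlap (49.7 to 62.6 against 10.6 to 13.6 CPM). Markers of hippocampal pyramidal neurons averaged 5.37 to 5.75 log2 CPM and those of dentate granule neurons 4.93 to 6.30 across the libraries. Markers of tissue next to the hippocampus varied far more, from -0.43 to 5.68 log2 CPM for the choroid plexus, from -0.79 to 3.19 for ependyma and from 3.20 to 5.95 for the thalamus and habenula. KO saline F3 and KO ethanol F1 stood at the ends of the first principal component (-60.8 and 47.4 on an axis with 22.4% of the variance), with Ttr, the main choroid plexus transcript, at 5.83 and 2339 CPM. How counts were made also bears on all values: 85.2% of the counts from 1 to 50 were even, as when both mates of a read pair are counted, and mt-Atp6 and its overlapping copy Atp6-ps had mean counts of 474516 and 474761, as when a shared read counts for each gene.

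Of 23394 tested genes 41 passed the interaction test (0.175%, edgeR's quasi-likelihood test with Benjamini-Hochberg adjustment at 0.05), 32 with a negative interaction (0.137%) and 9 with a positive one (0.0385%). As a further background, 2326 genes (9.94%) reached an unadjusted p under 0.05, 1331 negative (5.69%) and 995 positive (4.25%). The interactions that passed ran from 0.44 to 2.27 in size, with a median of 0.72. The call stood close to its threshold: 30 of the 41 shared the largest adjusted p of 0.0493, and the next gene missed at 0.0504. The number called also rested on single libraries. Without ethanol WT F1 or without saline KO M3 edgeR called 0 genes, with 2236 and 2235 at an unadjusted p under 0.05, and without saline WT M1 it called 24. The remaining single omissions gave 1 to 21 genes (1 without ethanol WT M3, 2 without ethanol WT M1 or without saline KO F3), and without KO saline F3 and KO ethanol F1 together 4 genes passed. DESeq2 called 279 genes, 40 of them among the 41. Each of the 41 genes kept its sign and an unadjusted p under 0.05 in every alternative in which it was tested. Only mt-Tk was untested in 1 of the 27. The genes were picked by a small p in these same libraries, so this was largely fixed by the choice and is no further support. With the level of choroid plexus and ependyma markers as a covariate 47 genes passed, 37 of them among the 41. In bulk tissue, fewer cells of a type and less RNA per cell cannot be told apart for any of these genes.

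**Figure D1:**
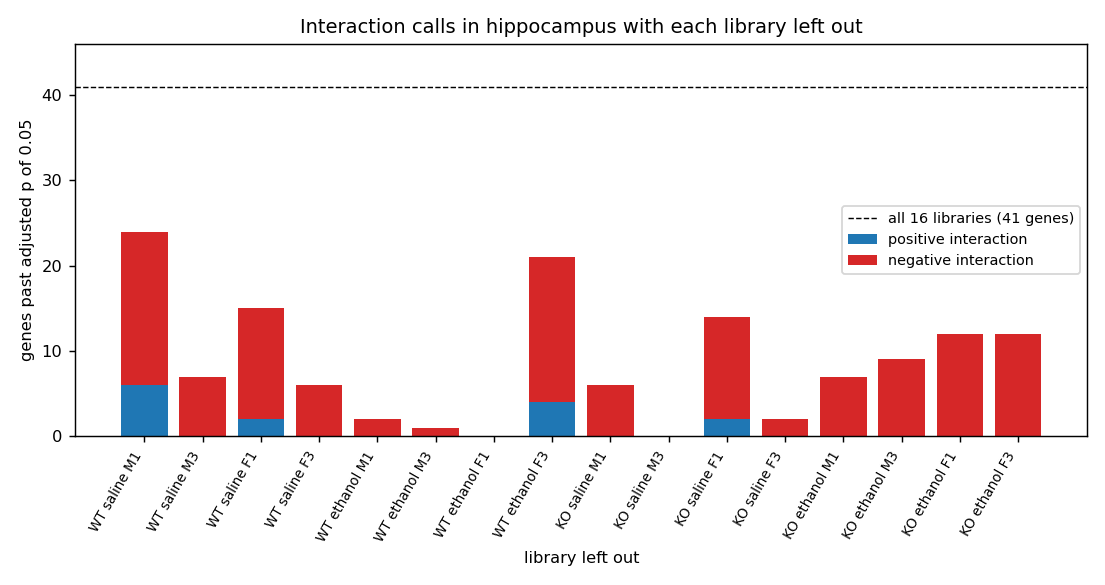
Number of hippocampal genes past an adjusted p of 0.05 for the interaction (vertical axis) when the library named on the horizontal axis was left out, split into positive (blue) and negative (red) interactions, with the count of 41 from all 16 libraries as a dashed line. Every bar is below the line, from 0 without ethanol WT F1 or saline KO M3 to 24 without saline WT M1.

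The form of the interaction was sorted by the exposure estimate in each genotype. Of the 41 genes 33 were opposite, with an unadjusted p under 0.05 in both genotypes and opposite signs, against 231 of all 23394 tested genes (0.987%). The other 8 met that p in KO alone, as did 7.63% of all tested genes: Nfkbia, Ppp1r3g, Nek10, Clk4 and Ccdc117 with lower values after ethanol, and Gbp11, Gpr84 and Spry2 with higher ones. In WT the unadjusted edgeR p of these 8 ran from 0.0579 (Ccdc117) to 0.269 (Gpr84). Missing the cutoff in WT does not show that a gene had no response there. Of the 41 genes 0 met the cutoff in WT alone, against 8.82% of all. Since the call favours genes whose exposure estimates differ between genotypes, this sorting describes the genes and is no test. In all 32 negative genes the estimate was positive in WT and negative in KO, and in all 9 positive genes the reverse, and the KO estimate was the larger in size in 28 of 41. Opposite genes were not confined to those that passed: of the 231, 174 were higher after ethanol in WT and lower in KO, and 57 were the reverse, while 162 genes (0.692%) had one sign in both genotypes at that p. Across all tested genes, which are not independent, the exposure estimates of the genotypes had a Pearson r of 0.168 and a Spearman rho of 0.087, and r was -0.01 over the 10529 genes of at least 10 CPM.

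Levels per library showed the same layout. The mean of the 32 negative genes was 4.29 to 4.42 log2 CPM in saline WT, 4.70 to 4.75 in ethanol WT, 4.60 to 4.73 in saline KO and 4.08 to 4.20 in ethanol KO. Ethanol WT and saline KO were thus the high groups and ethanol KO the low one, with saline WT between them. Gene by gene, ethanol and saline libraries did not overlap in 36 of the 41 genes in KO (4.96% of all tested genes) and in 19 in WT (5.63% of all). In both genotypes they did not overlap in 16, against 116 of all tested genes (0.496%). The genes were called for such differences in these libraries, so these levels and counts describe them and test nothing. Within single comparisons the calls were few: 0 genes for exposure in WT (0% of genes, while 2457 or 10.5% fell under 0.05 unadjusted, and DESeq2 called 128), 12 for exposure in KO (0.0513%; 9.31% unadjusted), 1 for genotype after saline (0.00427%; 8.85% unadjusted), which was Acss2, and 40 for genotype after ethanol (0.171%; 9.92% unadjusted). The 0 in WT became 21 without saline WT M1, the 12 in KO became 0 without saline KO M3 or without ethanol KO M1, and the 40 became 6 or 7 without ethanol WT M1, M3 or F1. These comparisons share libraries with the interaction and with each other.

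**Figure D2:**
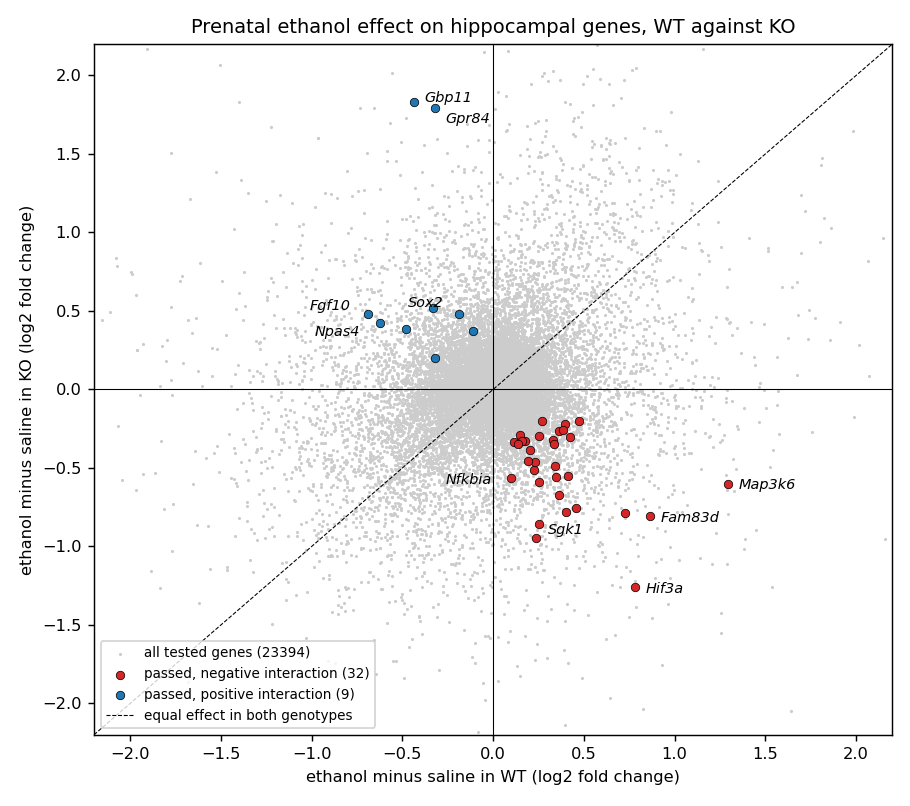
Ethanol minus saline log2 fold change in WT (horizontal) and KO (vertical) for the tested hippocampal genes (grey, 50 of 23394 fall outside the axes), with the 32 negative (red) and 9 positive (blue) interactions that passed. All red points lie in the lower right and all blue points in the upper left, away from the dashed line of equal effects.

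The glucocorticoid-responsive genes held 7 of the 32 negative genes and none of the positive ones. Of 28 listed and tested members, 24 had a negative interaction and 4 a positive one. Their median was -0.44 against 0.01 over all tested genes, of which 11160 were negative and 12234 positive. An unadjusted p under 0.05 was reached by 17 members (60.7% against 9.94%), 16 negative and 1 positive. This list and those below were chosen with earlier results of these data known, so the shares describe them and are no test. The median exposure estimate of the list was 0.16 in WT and -0.32 in KO. Over the alternatives 23 or 24 members were negative and the median ran from -0.54 to -0.39. The list's mean level was 3.91 to 4.02 log2 CPM in saline WT, 4.10 to 4.25 in ethanol WT, 4.06 to 4.23 in saline KO and 3.56 to 3.96 in ethanol KO, where M1 was the lowest. For this mean the ethanol and saline libraries were apart, without overlap, in both genotypes.

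Tsc22d3 encodes a protein that mediates anti-inflammatory effects of glucocorticoids. In the order F1, F3, M1 and M3 it measured 52.6, 51.6, 45.7 and 49.3 CPM in saline WT and 67.3, 60.6, 59.8 and 65.3 CPM in ethanol WT. In KO it measured 77.5, 53.5, 51.4 and 62.0 CPM after saline and 45.1, 42.2, 39.0 and 39.5 CPM after ethanol. Every ethanol library was above every saline library in WT and below every saline library in KO, and the interaction was -0.91 ± 0.13 (log2, SE; adjusted p = 0.0223). Within KO alone the gene fell by 0.56 on the log2 scale (adjusted p = 0.0475), and in WT the estimate was 0.35.

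Sgk1, the serum- and glucocorticoid-regulated kinase, controls ion channels and transporters in neurons. It measured 83.1, 67.8, 55.2 and 63.4 CPM in saline WT and 107.7, 97.9, 74.1 and 77.1 CPM in ethanol WT, which overlap. In KO it measured 78.7, 81.1, 87.3 and 94.9 CPM after saline and 52.4, 42.9, 43.6 and 60.4 CPM after ethanol, which do not. The interaction was -1.18 ± 0.20 (adjusted p = 0.0493). The window of 250 bases before one of its annotated start sites is shown because it holds a full palindromic glucocorticoid response element, made of AGAACA, any 3 bases and the reverse complement of AGAACA (searched on both strands), which only 3 of 32851 such windows of mouse genes hold (0.00913%). It lies on the forward strand at chr10:21993640-21993889 (RefSeq, GRCm38.p6), with the element 189 bases and an E-box, CACGTG, 246 bases before the start, both in capitals:
Sgk1: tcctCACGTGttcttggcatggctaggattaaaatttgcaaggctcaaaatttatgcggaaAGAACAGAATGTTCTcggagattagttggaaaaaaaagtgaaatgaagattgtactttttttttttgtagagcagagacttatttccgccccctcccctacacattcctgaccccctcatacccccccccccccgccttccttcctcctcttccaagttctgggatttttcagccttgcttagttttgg

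Windows were found for 31 of the 41 genes, 46 in all. No other window of these genes held the full element, and the single unit AGAACA, searched on both strands, was in 6 of the 46 against 16.1% of all windows. The unit lies within the full element and is counted there too. A match describes letters in this window and not binding, and motifs were chosen after the values were seen.

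Hif3a, a hypoxia-inducible transcription factor subunit, had the most negative interaction among the 41, -2.04 ± 0.32 (adjusted p = 0.0264). It measured 4.27, 4.10, 6.06 and 3.72 CPM in saline WT and 10.6, 6.04, 8.56 and 6.28 CPM in ethanol WT. It measured 5.19, 7.33, 3.74 and 4.38 CPM in saline KO and 2.25, 2.09, 1.68 and 2.52 CPM in ethanol KO. The KO libraries were apart, and the WT libraries overlapped through saline M1 and ethanol F3. Map3k6, a kinase of the stress-activated cascades, followed with -1.89 ± 0.34 (adjusted p = 0.0493). It rested on low counts, 1.27 to 1.70 CPM in saline WT, 2.56 to 6.53 in ethanol WT, 2.17 to 2.35 in saline KO and 1.28 to 2.07 in ethanol KO.

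Nfkbia, the inhibitor that keeps NF-kappaB in the cytoplasm, had an exposure estimate of larger size in KO than in WT. It measured 17.6, 18.4, 18.1 and 20.3 CPM in saline WT and 20.5, 20.7, 18.04 and 20.3 CPM in ethanol WT, which overlap. It measured 20.1, 20.6, 21.6 and 22.4 CPM in saline KO and 14.0, 14.5, 13.2 and 15.5 CPM in ethanol KO, so that ethanol KO was apart from every other group. The interaction was -0.66 ± 0.10 (adjusted p = 0.0247), with an estimate of 0.10 in WT and an estimate of -0.57 in KO that passed by itself (adjusted p = 0.00959). Of the 16 NF-kappaB subunits and inhibitors it was the only one past the threshold, 8 of the 16 interactions being positive and 8 negative. Arrdc2, an arrestin-domain adaptor, had an interaction of -0.96 ± 0.18 (adjusted p = 0.0493). Ddit4, an inhibitor of mTOR signalling, stood just outside at -0.64 (adjusted p = 0.0528), and Fkbp5, a chaperone that restrains the receptor, at -0.52 (adjusted p = 0.268).

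**Figure D3:**
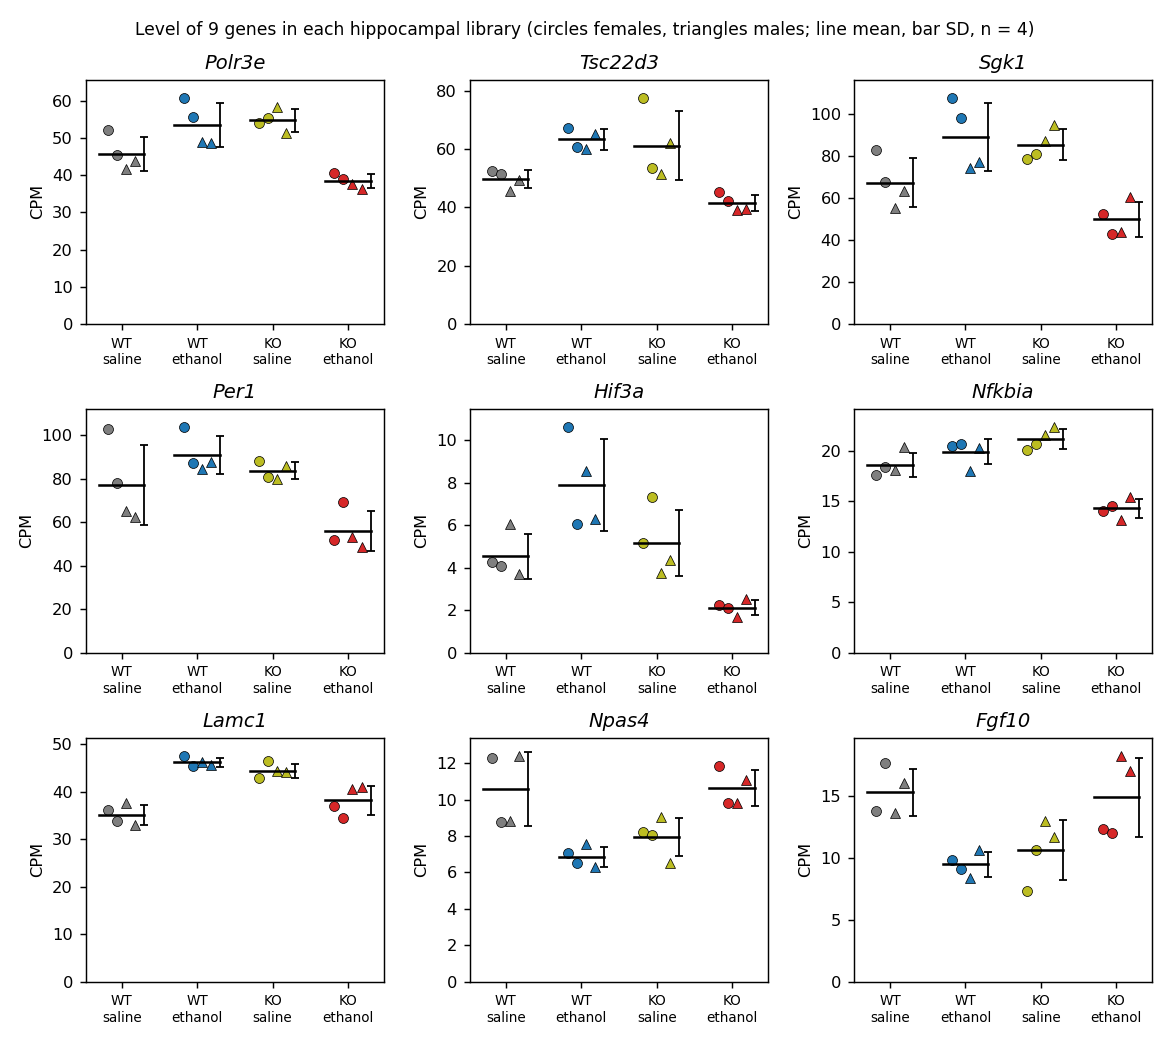
CPM (vertical axes, from 0) of 9 genes in the 4 groups, one point per library, with circles for females and triangles for males, a line at the mean and a bar of 1 SD (n = 4). Polr3e, Tsc22d3, Sgk1, Per1, Hif3a, Nfkbia and Lamc1 are lower in ethanol KO than in saline KO, and Npas4 and Fgf10 are lower in ethanol WT than in saline WT.

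In the circadian clock, PER proteins repress their own transcription, and DBP, TEF and HLF act through D-box elements. Of 22 clock genes 17 had a negative interaction (median -0.23) and 2 passed, Per3 and Per1. An unadjusted p under 0.05 was reached by 8, all negative (36.4% against 9.94% of all tested genes). Per3 measured 44.0, 44.6, 42.7 and 40.4 CPM in saline WT and 54.2, 60.04, 53.6 and 53.4 CPM in ethanol WT. In KO it measured 52.7, 47.9, 44.7 and 44.3 CPM after saline and 35.2, 41.2, 43.04 and 37.9 CPM after ethanol. Ethanol libraries were all higher in WT and all lower in KO, by a narrow margin in KO, with an interaction of -0.63 ± 0.10 (adjusted p = 0.0247). Per1, also a glucocorticoid-responsive and an activity-regulated gene, measured 102.7, 78.2, 65.0 and 62.4 CPM in saline WT and 103.9, 87.2, 84.7 and 87.8 CPM in ethanol WT. In KO it measured 88.1, 81.0, 79.8 and 85.8 CPM after saline and 52.1, 69.2, 53.4 and 48.8 CPM after ethanol. Only the KO libraries were apart, and the interaction was -0.84 ± 0.16 (adjusted p = 0.0493).

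Dbp, Ciart and Per2 had interactions of -0.74, -0.90 and -0.72 without passing (adjusted p = 0.0725, 0.108 and 0.176). The windows of Per3 and Per1 are shown for the clock elements they hold, in capitals: the D-box TTATGTAA 205 and 158 bases before the Per3 start and the E-box CACGTG 166 bases before a Per1 start (RefSeq, GRCm38.p6). They lie at chr4:151044666-151044915 on the reverse strand and chr11:69098699-69098948 on the forward strand:
Per3: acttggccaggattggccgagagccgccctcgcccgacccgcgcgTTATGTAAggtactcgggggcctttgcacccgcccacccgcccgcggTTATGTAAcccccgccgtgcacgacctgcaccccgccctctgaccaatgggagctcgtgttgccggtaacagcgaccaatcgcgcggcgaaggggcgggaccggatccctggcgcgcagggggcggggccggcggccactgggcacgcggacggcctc
Per1: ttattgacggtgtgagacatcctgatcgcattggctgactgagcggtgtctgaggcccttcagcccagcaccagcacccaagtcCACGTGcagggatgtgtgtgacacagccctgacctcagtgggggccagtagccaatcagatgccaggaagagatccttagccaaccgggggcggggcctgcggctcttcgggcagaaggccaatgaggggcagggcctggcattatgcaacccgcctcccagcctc

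Among the 46 windows 2 held the D-box (4.35%, those of Per3 and Nek10) against 0.819% of all windows, and 2 held the E-box (4.35%, those of Per1 and Sgk1) against 6.02%. Both motifs were searched on both strands.

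The gene with the smallest p was Polr3e, a subunit of RNA polymerase III, which transcribes transfer RNAs and other short RNAs (ENSMUSG00000030880, chromosome 7, GRCm39, forward strand, first listed exon 120516967 to 120517133). It measured 52.2, 45.4, 41.6 and 43.7 CPM in saline WT and 60.8, 55.7, 48.8 and 48.6 CPM in ethanol WT, which overlap. It measured 53.9, 55.4, 58.4 and 51.2 CPM in saline KO and 40.6, 38.9, 37.6 and 36.3 CPM in ethanol KO, which do not. The interaction was -0.74 ± 0.096 (adjusted p = 0.0157), and within KO the gene fell by 0.52 (adjusted p = 0.00959). It passed in 25 of the 27 alternatives, more than any other gene, followed by Tsc22d3 in 23 and by Lamc1 and Zfp366 in 21 each.

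Lamc1, the gamma chain shared by most laminins of basement membranes, was opposite between the genotypes (ENSMUSG00000026478). It measured 36.1, 33.8, 37.6 and 33.0 CPM in saline WT and 47.6, 45.4, 46.2 and 45.6 CPM in ethanol WT. It measured 42.8, 46.4, 44.4 and 44.1 CPM in saline KO and 36.9, 34.4, 40.5 and 41.0 CPM in ethanol KO. Ethanol was above saline in every WT library and below it in every KO library, with estimates of 0.40 and -0.22 and an interaction of -0.61 ± 0.088 (adjusted p = 0.0223). Pericyte and vascular smooth muscle markers lay on the negative side as well, with 13 of 13 negative interactions (median -0.32). An unadjusted p under 0.05 was reached in 5 (38.5% against 9.94% of all tested genes), such as Notch3 at -0.76, and 0 of the 13 markers passed. Their mean level was 2.40 to 2.58 log2 CPM in saline WT, 2.60 to 2.87 in ethanol WT, 2.79 to 2.98 in saline KO and 2.63 to 2.81 in ethanol KO, and their part in the result for Lamc1 was not tested. Of 17 endothelial markers 10 were negative and 7 positive (median -0.12), with Slc2a1, the glucose transporter of the blood-brain barrier, past the threshold at -0.67 ± 0.13 (adjusted p = 0.0493). Slc2a1 measured 53.7 to 69.2 CPM in saline WT, 79.2 to 94.1 in ethanol WT, 70.3 to 76.2 in saline KO and 53.0 to 73.1 in ethanol KO, apart in WT only.

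Other negative genes act in chromatin, signalling and transport. Tet3, which oxidises methylated cytosine, measured 57.1 to 74.9 CPM in saline WT, 80.3 to 89.4 in ethanol WT, 76.2 to 88.0 in saline KO and 61.2 to 69.3 in ethanol KO, with an interaction of -0.65 ± 0.10 (adjusted p = 0.0247). Zfp366, a co-regulator of nuclear receptors, had one of -1.52 ± 0.23 (adjusted p = 0.0247), from 4.14 to 6.46 CPM in saline WT and 7.71 to 10.1 in ethanol WT against 8.08 to 10.5 in saline KO and 4.33 to 6.71 in ethanol KO. Both genes had non-overlapping exposure groups in each genotype. Smarcd2, a subunit of SWI/SNF chromatin remodelling complexes, had an interaction of -0.70 (adjusted p = 0.0493). Slc7a5, a carrier of large neutral amino acids at the blood-brain barrier, had one of -0.68, Rasal2, a Ras GTPase-activating protein, one of -0.83, Plekha8, a lipid transfer protein of the Golgi, one of -0.50, and Fam83d, a protein of the mitotic spindle, one of -1.67 (adjusted p = 0.0406, 0.0359, 0.0352 and 0.0493). The remaining 14 negative genes had interactions from -0.44 (Smad1) to -1.21 (Plekhf1) at the shared adjusted p of 0.0493.

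The 9 positive genes are of several kinds. Npas4 is a transcription factor induced by neuronal activity. It measured 12.3, 8.76, 8.84 and 12.4 CPM in saline WT and 7.08, 6.50, 7.54 and 6.32 CPM in ethanol WT, and 8.21, 8.03, 9.04 and 6.51 CPM in saline KO and 11.8, 9.82, 9.80 and 11.1 CPM in ethanol KO. The exposure groups were apart in both genotypes and the interaction was 1.05 ± 0.19 (adjusted p = 0.0493). Of 35 activity-regulated genes 22 had a positive and 13 a negative interaction (median 0.05). An unadjusted p under 0.05 was reached by 9 (25.7% against 9.94% of all tested genes), 5 positive and 4 negative. Npas4 and Per1 passed in opposite directions. After them by p came Ptgs2 at 0.59 and Nr4a3 at 0.38 (adjusted p = 0.373 and 0.447), and then Fos at 0.75 and Dusp5 at -0.74 (adjusted p = 0.458 for each). The median of the list was 0.28 in females and -0.15 in males.

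Fgf10, a secreted growth factor, measured 13.8, 17.7, 13.7 and 16.03 CPM in saline WT and 9.84, 9.07, 8.35 and 10.7 CPM in ethanol WT. It measured 7.33, 10.6, 12.99 and 11.7 CPM in saline KO and 12.3, 12.0, 18.3 and 17.01 CPM in ethanol KO. The WT groups were apart, the KO groups overlapped, and the interaction was 1.17 ± 0.21 (adjusted p = 0.0493). Sox2, a transcription factor of neural stem cells and astrocytes, had an interaction of 0.67 ± 0.12 (adjusted p = 0.0493), with 47.1, 40.1, 47.0 and 47.9 CPM in ethanol KO above 29.6 to 35.3 CPM in saline KO, and overlapping WT groups of 32.2 to 45.8 and 29.2 to 35.2 CPM. Of 15 astrocyte markers 5 had a positive and 10 a negative interaction (median -0.04), and 0 passed. Spry2, a feedback inhibitor of growth factor signalling through ERK, had an interaction of 0.48 ± 0.094, with 47.0 to 50.0 CPM in ethanol KO above 35.8 to 40.2 in saline KO. It was the only one of 13 ERK feedback inhibitors that passed, and 10 of the 13 were negative, with Errfi1 at -0.43, Spry4 at -0.31 and Dusp5 at -0.74 (adjusted p = 0.25, 0.425 and 0.458).

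Rida, an enzyme that clears reactive imines, and Ccdc190 had interactions of 0.52 ± 0.098 and 0.85 ± 0.16 (adjusted p = 0.0493 for each). mt-Tk, the mitochondrial transfer RNA for lysine, had one of 0.87 ± 0.16 (adjusted p = 0.0493), from 7.15 to 8.89 CPM in saline WT, 5.04 to 6.15 in ethanol WT, 4.65 to 6.11 in saline KO and 6.49 to 7.88 in ethanol KO. It lies between mt-Co2 and mt-Atp8 in the mitochondrial genome, whose interactions were 0.39 and 0.35 at 5014 and 2126 CPM, and reads of unprocessed neighbours cannot be told apart from its own in polyA libraries. Gbp11, of the interferon-induced guanylate-binding proteins, and Gpr84, a receptor of activated microglia, had the largest positive interactions, 2.27 ± 0.42 and 2.11 ± 0.40, at means under 1 CPM over the libraries, and are named here after their values were seen. Gpr84 measured 0.71 to 1.18 CPM in ethanol KO, 0.21 to 0.35 in saline KO, 0.35 to 0.72 in saline WT and 0.33 to 0.51 in ethanol WT.

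Microglia markers were mostly positive too. Of 19 tested, 18 had a positive interaction (median 0.21). An unadjusted p under 0.05 was reached by 8, all positive (42.1% against 9.94% of all tested genes). Past the adjusted threshold were 0. The nearest were the purinergic receptors P2ry12, at 0.55 ± 0.11 (adjusted p = 0.0531), and P2ry13 at 0.68 (adjusted p = 0.0625), then Cx3cr1, the fractalkine receptor, at 0.33 (adjusted p = 0.17). P2ry12 measured 29.1 to 35.4 CPM in saline WT, 25.9 to 29.1 in ethanol WT, 25.2 to 29.9 in saline KO and 29.9 to 35.7 in ethanol KO. The mean of the microglia list ran from 3.91 to 4.34 log2 CPM over the libraries and its groups overlapped, and its part in the result for Gpr84 was not tested.

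Several lists were mostly positive with 0 members past the threshold. Chaperones and other genes of heat shock and of the unfolded protein response were positive in 27 of 30 (median 0.25). An unadjusted p under 0.05 was reached by 12 (40% against 9.94% of all tested genes). Among them were Calr at 0.38, Pdia6 at 0.46, Hsp90b1 at 0.47 and Hsp90aa1 at 0.42 (adjusted p = 0.195, 0.204, 0.226 and 0.236). The mean of the list was 6.32 to 6.79 log2 CPM in ethanol KO and 6.19 to 6.34 in the other groups together. Pdia6, a disulfide isomerase, measured 96.9, 88.7, 107.7 and 133.8 CPM in ethanol KO against 63.0 to 78.1 in the 12 other libraries. For this list the exposure median was 0.05 in WT and 0.21 in KO. Xbp1, a transcription factor that is also a member of this list, was higher after ethanol in both genotypes by the unadjusted p (0.23 in WT and 0.42 in KO), with an interaction of 0.19 (adjusted p = 0.703).

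Transcripts for respiration and translation were mostly positive as well. Of 15 mitochondrially encoded transcripts 15 were positive (median 0.36). An unadjusted p under 0.05 was reached by 13 (86.7% against 9.94% of all tested genes). Among them were mt-Nd2 at 0.42, mt-Cytb at 0.34, mt-Nd1 at 0.39 and mt-Nd5 at 0.33 (adjusted p from 0.158 to 0.202). Nuclear-encoded oxidative phosphorylation genes were positive in 82 of 85 (median 0.20, 23 or 27.1% at that p). Atp5mg stood at 0.44 and Ndufa5 at 0.48. Cytosolic ribosomal proteins were positive in 78 of 84 (median 0.19, 14 or 16.7% at that p), such as Rpl23 at 0.37. In these last 2 lists the exposure medians were -0.18 and -0.17 in WT against 0.03 and 0.02 in KO, the larger size being in WT. Saline WT held the highest libraries for both, up to 5.75 and 6.31 log2 CPM. Members of one list share libraries and are not independent.

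**Figure D4:**
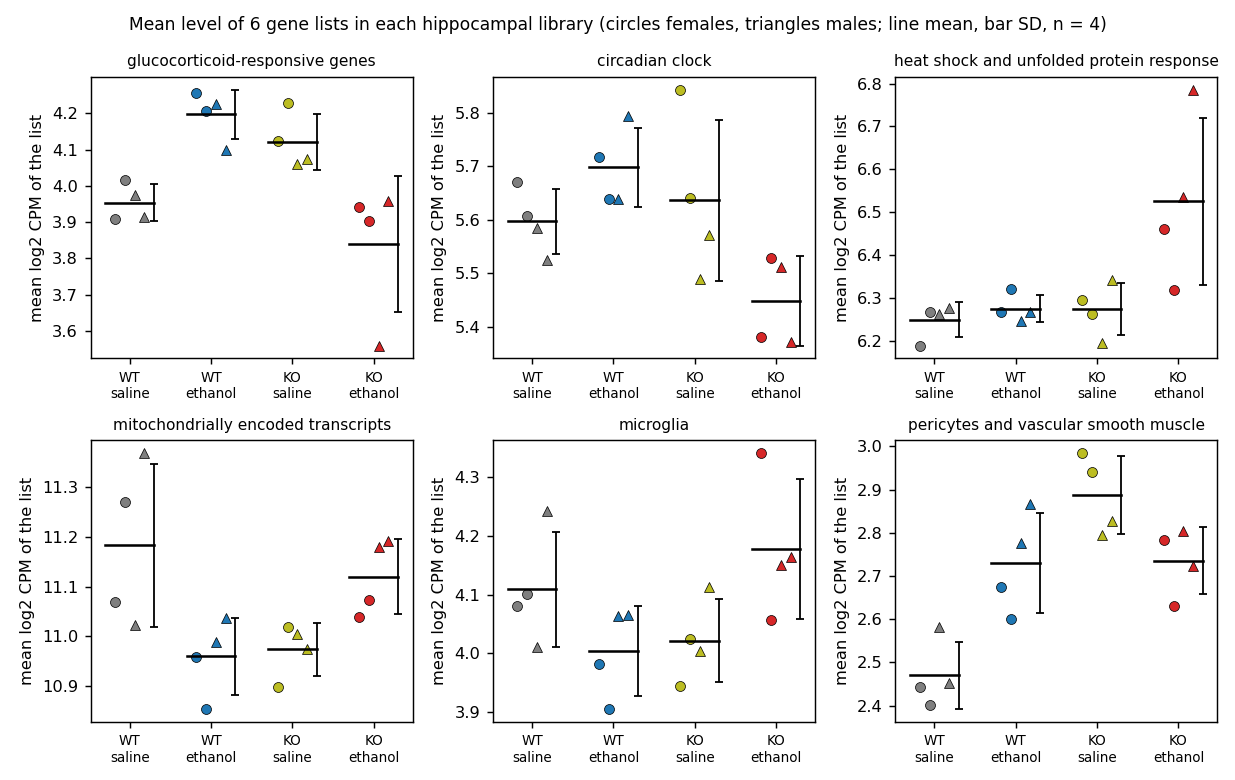
Mean log2 CPM (vertical axes, not from 0) of 6 gene lists in the 4 groups, one point per library, with circles for females and triangles for males, a line at the mean and a bar of 1 SD (n = 4). Glucocorticoid-responsive genes stand at 3.56 to 3.96 in ethanol KO, heat shock and unfolded protein response genes at 6.32 to 6.79 there, and microglia markers overlap between groups.

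No gene of the acetate list passed. Acss2 itself had an interaction of -0.26 ± 0.10 (adjusted p = 0.425). The 20 genes of acetate and acetyl-CoA metabolism had a median of 0.03, with 14 positive and 6 negative. An unadjusted p under 0.05 was reached by 2 (10%, near the 9.94% of all tested genes), Acat1 at 0.20 (adjusted p = 0.389) and Acss2. Acot12, an acetyl-CoA hydrolase at a mean of 0.60 CPM, had the interaction of largest size in the list, -0.78 ± 0.43 (adjusted p = 0.584). Of 26 histone acetyltransferases and deacetylases 18 were negative and 8 positive (median -0.06), 8 reached that p (30.8%) and 0 passed. The acetyltransferases Crebbp and Ep300 stood at -0.38 and -0.33 and the deacetylases Hdac7 and Hdac6 at -0.39 and -0.28 (adjusted p = 0.192, 0.396, 0.198 and 0.425). Lists of tissue next to the hippocampus had larger medians with 0 members passing and 0 at an unadjusted p under 0.05: 1.23 for choroid plexus, 0.62 for ependyma, 0.70 for striatal neurons and -0.76 for thalamic and habenular neurons. These medians rested on single libraries. Without ethanol KO F1 those of choroid plexus, ependyma and striatum were 0.23, -0.13 and 0.18, and without ethanol WT F3 the first 2 were 2.31 and 1.63. The striatal median was 1.25 without ethanol WT F1, and the thalamic one ran from -1.09 without saline KO M1 to 0.23 without saline KO F1.

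Markers of the hippocampus's own neurons had medians of smaller size, also with 0 members past the threshold. Dentate granule neuron markers were negative in 13 of 14 (median -0.27). An unadjusted p under 0.05 was reached by 2 (14.3% against 9.94% of all tested genes), Npnt at -0.85 and Pitpnm2 at -0.56 (adjusted p = 0.474 and 0.491). The mean of the dentate markers was 4.95 to 5.80 log2 CPM in saline WT and 5.49 to 5.96 in ethanol WT. It was 5.76 to 6.23 in saline KO and 4.93 to 6.30 in ethanol KO, so that the groups overlapped. The dentate median was -0.69 without ethanol KO F3 and -0.04 without ethanol KO F1. Markers of CA1 and CA3 pyramidal neurons were positive in 15 of 16 (median 0.16, from 0.08 without ethanol WT F3 to 0.28 without saline KO F3), and those of interneurons in 14 of 16 (median 0.22). The part of these cell types in the results for the 41 genes was not tested.

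The interaction was split by sex in a fit with 8 terms, 1 per sex in each group. All 41 genes had the same sign in females and in males, with a median size of 0.72 in females and 0.79 in males, and 18 were larger in females. Both sexes entered the call, so this describes the genes and does not test them again. The difference between the sexes was called for 0 of 23394 genes by edgeR (0%; 696 or 2.98% under 0.05 unadjusted) and for 0 by limma-voom, and 1 of the 41, Clk4, a kinase of splicing factors, reached that p, at -0.27 in females and -0.62 in males. Each sex rests on 2 mice per group, which limits what this test can call.

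The cerebellar vermis of the same 16 mice gave a second measurement in separate libraries. There 24 of 22441 genes passed the interaction test (0.107%) and 2524 reached an unadjusted p under 0.05 (11.2%). Of the 41 hippocampal genes 38 had the same sign in the vermis, 21 also reached an unadjusted p under 0.05 there with that sign, and 0 reached it with the other. The 6 past the adjusted threshold in the vermis were Tsc22d3 (-0.68), Nfkbia (-0.70), Slc7a5 (-0.57), Sgk1 (-1.22), Map3k6 (-2.001) and Per1 (-1.40). All but Slc7a5 are on the glucocorticoid-responsive list, which was chosen with earlier results of these data known. Under the vermis alternatives 35 to 38 of the 41 kept the sign. The exceptions were Rasal2 (0.10), Spry2 (-0.07) and Nek10 (2.09, in a tissue where its estimate had an adjusted p of 0.576). Genes near 0 in the vermis included Polr3e (-0.10), Lamc1 (-0.12), Frmd4a (-0.05), Ankrd13a (-0.02) and Fgf10 (0.12). Choosing genes by their hippocampal value favours such smaller values in the vermis. List medians were not all smaller there. In the vermis they were -0.63 for glucocorticoid-responsive, -0.28 for clock and 0.47 for microglia genes, against -0.44, -0.23 and 0.21 in hippocampus. For pericyte and vascular smooth muscle markers and mitochondrially encoded transcripts they were 0.05 and 0.11, against -0.32 and 0.36. The tissues share mice, litters and exposure, so the vermis is no independent replicate. The share of all genes with one sign in both tissues is not given here, so the 38 of 41 has no background.

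The difference between the tissues was tested directly, with mouse as a block. Of 24458 genes 1 passed (0.00409%), Slc2a13, a myo-inositol transporter, with an interaction of -0.33 in hippocampus and 1.03 in vermis (difference -1.33 ± 0.19, adjusted p = 0.0455), which is named after its values were seen and did not pass with limma-voom. Of the 41 genes 0 passed by edgeR, the smallest adjusted p being 0.0607 for Polr3e (difference -0.62 ± 0.095), and 13 reached an unadjusted p under 0.05, such as Rasal2 (-0.92) and Lamc1 (-0.49), against 1806 of all genes (7.38%). Per1, also among the 13, had a difference of 0.56, since its negative interaction was larger in the vermis (-1.40) than in hippocampus (-0.84). The hippocampal interaction that picked the 41 is part of the difference between the tissues, so the choice raises their share under 0.05. With 0 of the 41 past the adjusted threshold, for none was the interaction shown to be particular to the hippocampus.

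**Figure D5:**
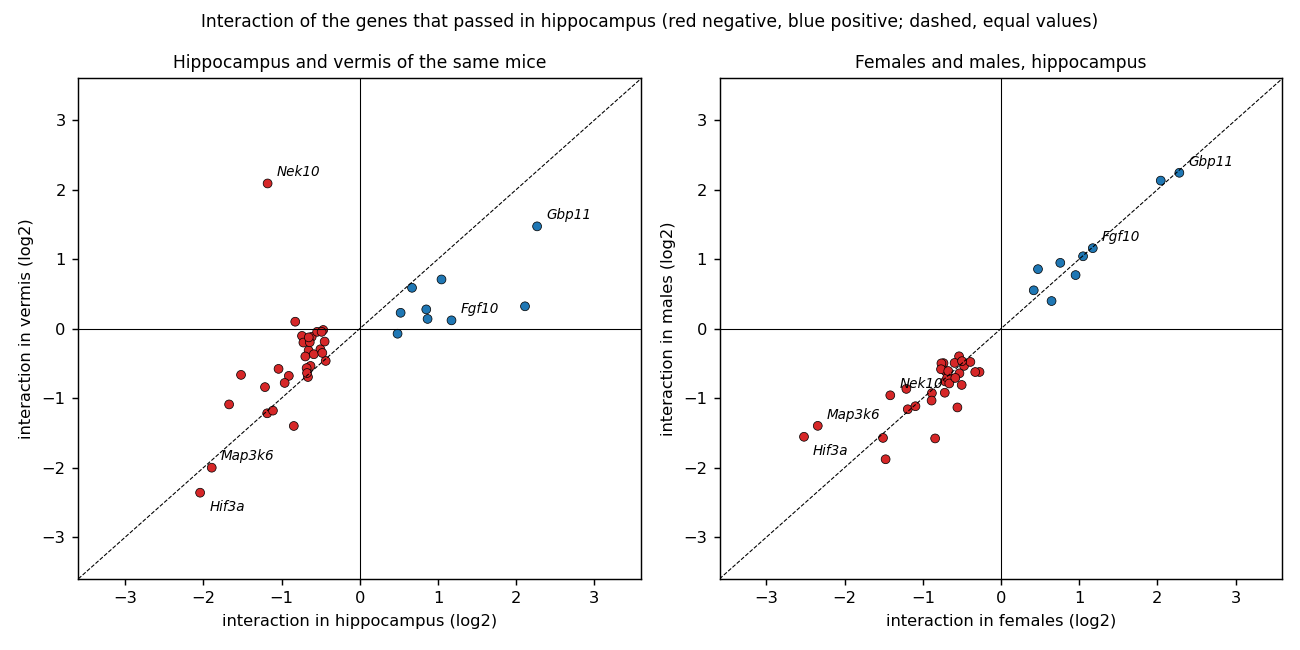
Left, the interaction of the 41 genes in hippocampus (horizontal, log2) and in the vermis of the same mice (vertical, log2). Right, the hippocampal interaction in females (horizontal) and males (vertical), with red for negative and blue for positive genes and a dashed line at equal values. On the left 38 of 41 points keep their sign. Many lie nearer to 0 in the vermis, as choosing genes by their hippocampal value favours. Nek10 at 2.09 is the point of opposite sign farthest from 0, and on the right all 41 keep their sign.

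Properties that the test did not use were compared as a description. Of the 41 genes 40 are protein-coding and 1 is the transfer RNA. The median of the deposited transcript length was 5580.5 bases for the 32 negative genes and 2087 bases for the 9 positive ones, against 3444.5 for all tested genes, while the interaction and log2 length had a Pearson r of -0.01 over all tested genes. With an offset for transcript length 42 genes passed, 33 of them among the 41. In the GENCODE M21 annotation 11 of the 41 have an exon that overlaps another gene, in most cases on the opposite strand, such as Fgf10 with Gm16263 (interaction 0.63), Plekha8 with Fkbp14 (0.22) and Zfp276 with Fanca (-0.09). The strand setting of the counting is not given in the sources used here, so reads of such pairs cannot be told apart.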

How the data were processed

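PolyA RNA-seq gave 16 dorsal hippocampus libraries in 4 groups, and 16 vermis libraries of the same mice served for comparison. The deposited values are raw counts for 56415 genes. Per the submitters' processing notes, the authors' tools included STAR 2.7.10a, featureCounts 2.0.6, cutadapt 5.0, bcl2fastq and DESeq2, with the GRCm39 build. Strand and overlap settings are not given in the sources used here.

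The counts were tested with edgeR 4.0.16 (R 4.3.3): filterByExpr by group (23394 genes in hippocampus, 22441 in vermis), TMM scaling, robust quasi-likelihood F-tests with a sex term over all 16 libraries of a tissue, and Benjamini-Hochberg adjustment at 0.05. Log2 CPM used a prior count of 2. The tissue comparison blocked on mouse. A level of 1 CPM stands for 54.1 to 96.7 counts, depending on the library. Counts are not independent molecules. No 2 libraries of a group were copies (lowest chi-square per degree of freedom 12.2 over 24 pairs).

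Named genes are the 15 smallest p-values per direction among those that passed at 1 CPM or more with an established symbol, then Acss2 and up to 4 members of a described list. All others were named after their values were seen. The comparison, members and lists were chosen with earlier results of these data known, and lists carry no test. The code was tested on simulated data. Alternatives were DESeq2 1.42.0, RLE scaling, an unfiltered table, the omission of the sex term, the replicate label as block, sex by group cells, limma 3.58.1 voom with weights, a covariate of choroid plexus and ependyma level, protein-coding genes and each library left out. Those added after seeing the data were a length offset, the omission of KO ethanol F1 with KO saline F3, all for the genotype comparisons and the vermis, and leaving out each mouse or library for the tissue and sex differences. Promoter windows are from RefSeq (GRCm38.p6) and overlaps from GENCODE M21, matched by symbol, and motifs were chosen after values were seen. Python 3.11.15 and matplotlib 3.10.9 drew the figures.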

Additional observations from a re-analysis of the deposited data

Results flagged for a closer look

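In 13 of 224 groups of 4 libraries checked, 1 library stood far from the other 3 by Dixon's criterion, about the 1 in 20 that chance gives. Libraries that were high were saline KO F3 for Zfp366 (10.5 CPM, others 8.08 to 8.46) and Gbp11 (0.248 CPM, others 0.143 to 0.149), saline KO F1 for Gpr84 (0.346 CPM, others 0.209 to 0.232), ethanol WT F3 for Per3 (60.04 CPM, others 53.4 to 54.2), ethanol WT F1 for Per1 (103.9 CPM, others 84.7 to 87.8) and ethanol WT M3 for Frmd4a (80.3 CPM, others 75.1 to 75.8). Saline WT M1 was high for Slc7a5 (65.7 CPM, others 52.1 to 54.0) and Prr5 (6.88 CPM, others 4.84 to 4.98), and ethanol KO M3 for Map3k6 (2.07 CPM, others 1.28 to 1.36). Libraries that were low were ethanol WT M1 for Nfkbia (18.04 CPM, others 20.3 to 20.7), ethanol KO F3 for Sox2 (40.1 CPM, others 47.0 to 47.9), saline KO M1 for Ccdc117 (18.4 CPM, others 19.1 to 19.2) and ethanol KO M1 for the mean of the glucocorticoid-responsive genes (3.56 log2 CPM, others 3.90 to 3.96). These genes kept their sign and an unadjusted p under 0.05 without the library concerned, which their choice by p in these libraries largely fixed.

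The interaction of Slc2a13 differed between the tissues (-0.33 in hippocampus, 1.03 in vermis, difference -1.33 with an adjusted p = 0.0455 in edgeR).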

How the results depend on the processing

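The number of interaction genes, 41, was 279 with DESeq2, 688 with no low-count filter (280 positive and 408 negative), 23 with no sex term, 14 with sex by group cells, 4 without KO ethanol F1 and KO saline F3, and 0 to 24 with 1 library left out. The 33 opposite genes were 168, 295, 20, 12 and 4 in the same order, 51 with voom, and 0 to 22 with 1 library left out. For exposure in WT (0 genes) the count was 128 with DESeq2, 608 with no filter and 0 to 21 with 1 library left out (21 without saline WT M1). For exposure in KO (12) it was 116 and 928 in that order, 6 with sex by group cells, 19 with voom, 5 with the choroid plexus and ependyma covariate, 29 over protein-coding genes, 27 with the length offset, 5 without KO ethanol F1 and KO saline F3, and 0 to 19. For genotype after saline (1) it was 199, 633 and 1 to 92 (92 without saline WT M1), and after ethanol (40) 225, 430, 114 with voom, 71 with the covariate, 20 without the pair and 6 to 45. In the vermis (24) it was 247, 53, 41 with no sex term, 7 with sex by group cells, 86 with voom, 7 with the covariate, 37 with the length offset and 3 to 168 (3 without saline WT M1, 168 without ethanol KO F3). The tissue difference (1) gave 0 with voom and 0 to 5 (5 without the mouse of ethanol KO F3), and the sex difference (0) 0 to 2 (2 without ethanol WT F1). The causes were not tested.

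With the replicate label as a block 32 hippocampal interaction genes passed, 21 of them among the 41, and 6 in the vermis. The labels do not say whether mice with the same replicate label belong together. Deviations of same-labelled libraries had correlations from -0.36 to 0.28, over 0.1 in 3 of 24 pairs, which cannot exclude a small shared effect. The 41 genes, Acss2 and up to 4 members of each described list were followed through the 27 alternatives, and none changed sign. Other genes named in the text, such as Fos, Fkbp5 and Klf15, were not followed. Most of the genes followed were named for a small p in these libraries, so a kept sign is no further support. Among the 41 the fewest passes per gene were 4 of 27, for Slc39a14 and 1 other gene. Gbp11 and Gpr84, at means under 1 CPM, rest on the fewest counts among the 41.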

Other observations

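Some genes outside the lists stood near the threshold and are named after their values were seen. Klf15, a glucocorticoid-induced transcription factor, had an interaction of -0.62 ± 0.12 in hippocampus (adjusted p = 0.0593) and -0.73 in the vermis, where it passed (adjusted p = 0.0288). Dbp, the clock output factor, passed in the vermis at -0.90 (adjusted p = 0.000681) while the difference between the tissues did not (0.17, adjusted p = 0.844). Kcnj2, an inward rectifier potassium channel, measured 18.8, 20.7, 20.0 and 24.3 CPM in ethanol KO against 9.98, 14.1, 11.9 and 10.2 CPM in saline KO, a difference within KO that passed (log2 0.85, adjusted p = 0.0475), with 11.6 to 19.2 CPM in WT and an interaction of 0.95 (adjusted p = 0.076). Dot1l, a histone methyltransferase, stood at -0.57 (adjusted p = 0.0511).

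Genes that had the same direction in both genotypes at an unadjusted p under 0.05 included Rbm3, a cold-induced RNA-binding protein, with exposure estimates of -0.26 in WT and -0.41 in KO and an interaction of -0.15 (adjusted p = 0.784). The marker list of thalamic and habenular neurons had a median interaction of -1.93 in females and 0.55 in males, and 0 of its 14 members reached 0.05 unadjusted for the interaction over both sexes.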
